A study of Caenorhabditis elegans with 2 samples.

Results

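MicroRNA genes were examined for calls in a chromatin immunoprecipitation sequencing (ChIP-seq) experiment on the Caenorhabditis elegans protein F55B11.4, which the series treats as a transcription factor. All 261 genes of biotype miRNA in the Ensembl annotation of the WBcel235 assembly (ce11) were taken, out of 46926 annotated genes, whatever calls they had. The animals were whole hermaphrodites of strain OP385, genotype unc-119(tm4063) III; wgIs385, in which wgIs385 is a transgene that carries F55B11.4 with a C-terminal GFP-FLAG tag. They had been synchronized by bleaching and starvation at the L1 stage and were harvested 65 hours later, as young adults, for precipitation with anti-GFP antibody. All samples belong to this single group, in 2 biological replicates, and no control library was analysed here, so the values below set lists, gene classes and genome windows side by side. Since whole animals were pooled, a call does not say in which cells the tagged protein was present. A call is an entry in the authors' lists, and it was counted at a gene when its summit lay within 500 bp of the annotated gene.

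A microRNA is cut from a hairpin in a longer transcript and directs the silencing of messenger RNAs, mainly through its seed, the bases 2 to 8 from its 5′ end. Most C. elegans microRNA genes are transcribed by RNA polymerase II, either from a promoter of their own or as part of the gene whose intron holds them, and neighbouring hairpins can share a transcript. The first known microRNAs, lin-4 and let-7, were found in this animal as timers of larval development. The annotated members were 52 to 1732 bp long, with a median of 95 bp. The longest was let-7, which is annotated as a long primary transcript. Of the 261 genes, 152 were intergenic, 97 lay in an intron of a protein-coding gene, on either strand, and 12 overlapped an exon of one. Another microRNA gene lay within 5 kb of 85 of them, which form 30 clusters, and the other 176 were single. Replicate 1 had 21050 permissive calls, replicate 2 had 14257, the pooled replicates had 670, and the optimal set, which the authors chose by irreproducible discovery rate (IDR), had 48 peaks. The number of reads behind each list is unknown.

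Some of the genes described below belong to a few seed families, and mature sequences are shown so that these families can be told apart. RefSeq's annotation of the same assembly gave a mature sequence for 260 of the 261 genes. Capitals mark the seed. The first 3 belong to the mir-35 family, the next 3 to the mir-51 family, then come 4 of the let-7 family, 2 of the lin-4 family and mir-4936.
mir-35: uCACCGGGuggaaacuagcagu
mir-41: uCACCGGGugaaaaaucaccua
mir-42: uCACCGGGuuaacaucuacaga
mir-51: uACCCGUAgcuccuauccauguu
mir-54: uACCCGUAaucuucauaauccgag
mir-55: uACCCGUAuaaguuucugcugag
mir-48: uGAGGUAGgcucaguagaugcga
mir-241: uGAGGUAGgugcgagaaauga
mir-84: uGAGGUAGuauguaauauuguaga
let-7: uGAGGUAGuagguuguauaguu
lin-4: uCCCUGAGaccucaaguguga
mir-237: uCCCUGAGaauucucgaacagcu
mir-4936: uGCUUUGUggcuuugcuggua

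MicroRNA genes had calls more often than genome windows of their length and less often than genes at large in the lists of single replicates, although with a reach of 1000 bp the gap to genes at large was small. In replicate 1, 73 of the 261 genes had a summit within 500 bp (28.0%, exact 95% interval 22.6 to 33.8), against 34.9% of all 46890 nuclear genes and 20.4% of all nuclear windows of 95 bp. In replicate 2 the count was 56 (21.5%, 16.6 to 26.9), against 27.1% of genes and 14.3% of windows. The mean share was 24.7% ± 4.61 (SD, n = 2). The intervals cover the counting of genes only, and genes of one cluster share summits, so they are too narrow. In the pooled list microRNA genes lay above both backgrounds: 12 of them had a call (4.60%, 2.40 to 7.89), against 2.21% of all nuclear genes and 0.701% of windows. These 12 genes rest on 9 calls. With genes within 500 bp joined, 9 of 223 loci had a pooled call (4.04%, 1.86 to 7.52). Without the mir-35 and mir-54 clusters, described below and left out after seeing the data, the share was 3.20% (1.39 to 6.21). Both of these intervals include the share of nuclear genes. None of the 261 had a peak of the optimal set, which allows a share of up to 1.40% (upper limit of the exact interval). The optimal set had a peak at 0.13% of nuclear genes and 0.0328% of windows, both below that limit.

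**Figure D1:**
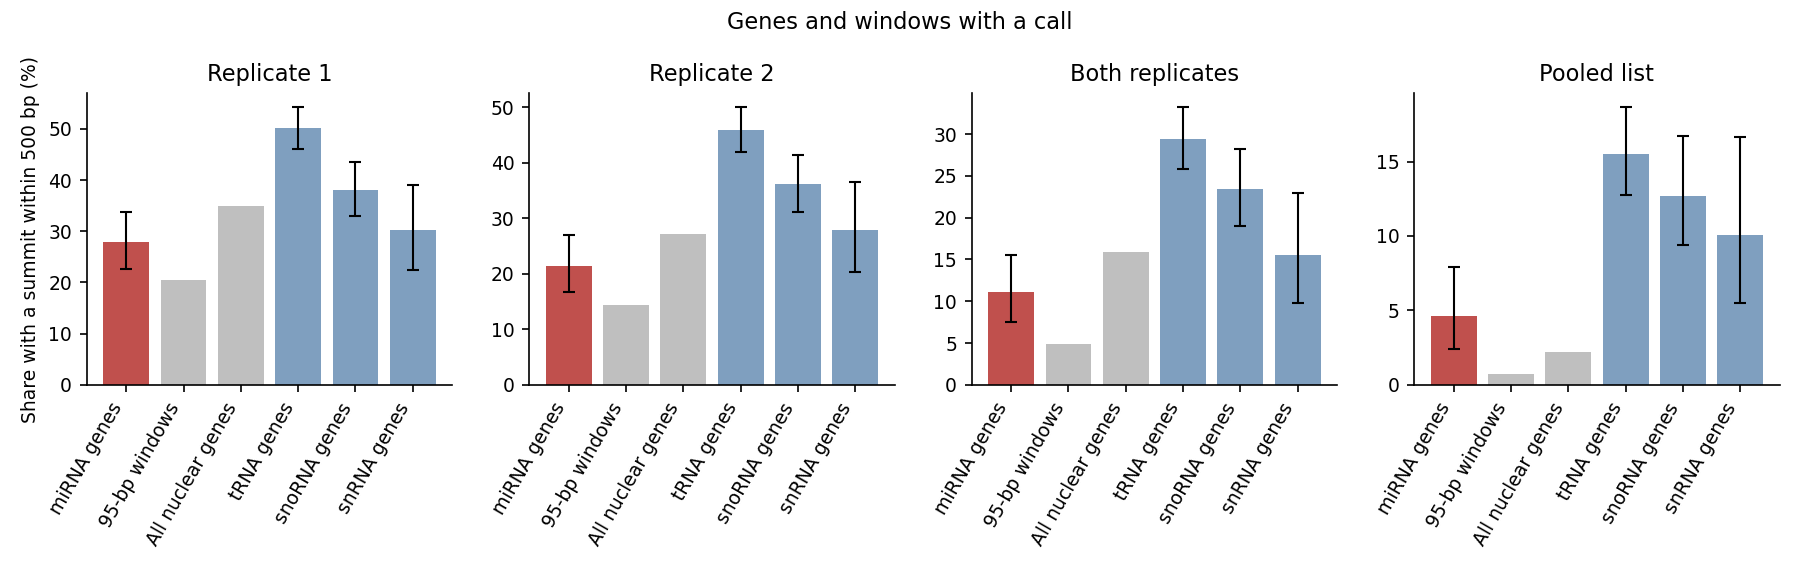
Share of genes or windows (%, vertical axis) with a call summit within 500 bp, for microRNA genes (red), nuclear windows of 95 bp and all nuclear genes (grey), and tRNA, snoRNA and snRNA genes (blue), in 4 panels with separate scales. Error bars are exact 95% intervals for the counting of genes, and the bar of microRNA genes lies between the windows and all genes in the panels of the single replicates and above both in the pooled list.

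The genes of tRNAs, snoRNAs and snRNAs had calls at higher shares, and those of piRNAs at lower ones. Transfer RNA genes, which RNA polymerase III transcribes, had a call at 50.2% of 612 genes in replicate 1, 45.9% in replicate 2 and 15.5% in the pooled list. For the 346 snoRNA genes the shares were 38.2%, 36.1% and 12.7%. The 129 snRNA genes, which encode parts of the splicing machinery, had 30.2%, 27.9% and 10.1%, so in the single replicates their intervals (22.5 to 38.9 in replicate 1) overlapped that of microRNA genes. Protein-coding genes, which are far longer and so have more room for a summit, had 53.6%, 42.5% and 3.20%. The genes of piRNAs, germline small RNAs with very short genes, had 14.5%, 10.3% and 0.273%, the lowest of these classes in every list.

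Both replicates had a call at 29 microRNA genes (11.1%, 7.57 to 15.6), against 15.9% of all nuclear genes and 4.84% of windows. These 29 are 39.7% of the genes called in replicate 1 and 51.8% of those called in replicate 2. Over all nuclear genes the same shares were 45.6% and 58.9%, and for tRNA genes 58.6% and 64.1%. A further 44 microRNA genes had a call in replicate 1 alone and 27 in replicate 2 alone, while 161 had none. The 29 genes lie in 21 loci when genes within 5 kb are joined. At 27 of the 29 the called intervals of the replicates overlapped, but their nearest summits were a median of 183 bp apart, against 65.5 bp at tRNA genes, 95 bp at snoRNA genes and 65 bp at snRNA genes called in both. A gap of at most 100 bp was found at 10 of the 29 microRNA genes (34.5%) and at 63.3% of such tRNA genes. Genes of the same cluster are counted separately in these values although they share summits. The same gap of 397 bp stands for each of mir-35 to mir-40, and that of 183 bp for mir-54, mir-55 and mir-55b. These gaps were not recomputed by locus.

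Calls at microRNA genes were of middling strength. Each call has a signal value, a score set by the authors' peak caller, which is given here as a percentile within its own list. The 71 calls at microRNA genes in replicate 1 had a median percentile of 46.9 (range 0.487 to 99.3), the 50 in replicate 2 one of 50.5 (3.20 to 98.8) and the 9 in the pooled list one of 44.9 (8.73 to 62.6). Of these, the strongest 10% of each list held 8 of 71, 6 of 50 and 0 of 9. The authors' q-values, the false discovery rates attached to each call, were high throughout. The smallest at a microRNA gene was 0.131 in replicate 1, 0.239 in replicate 2 and 0.626 in the pooled list. Over all nuclear calls the median q was 0.830 in replicate 1, 0.850 in replicate 2 and 0.663 in the pooled list. GC content within 100 bp of the summit had a median of 36.8% at microRNA genes in replicate 1 (37.3% for all nuclear calls), 43.0% in replicate 2 (37.8%) and 49.8% in the pooled list (41.8%). A protein-coding 5′ end lay within 500 bp of 16.9% of the calls at microRNA genes in replicate 1 (20.1% of all nuclear calls), of 28% in replicate 2 (20.4%) and of 1 of 9 in the pooled list (21.3%).

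**Figure D2:**
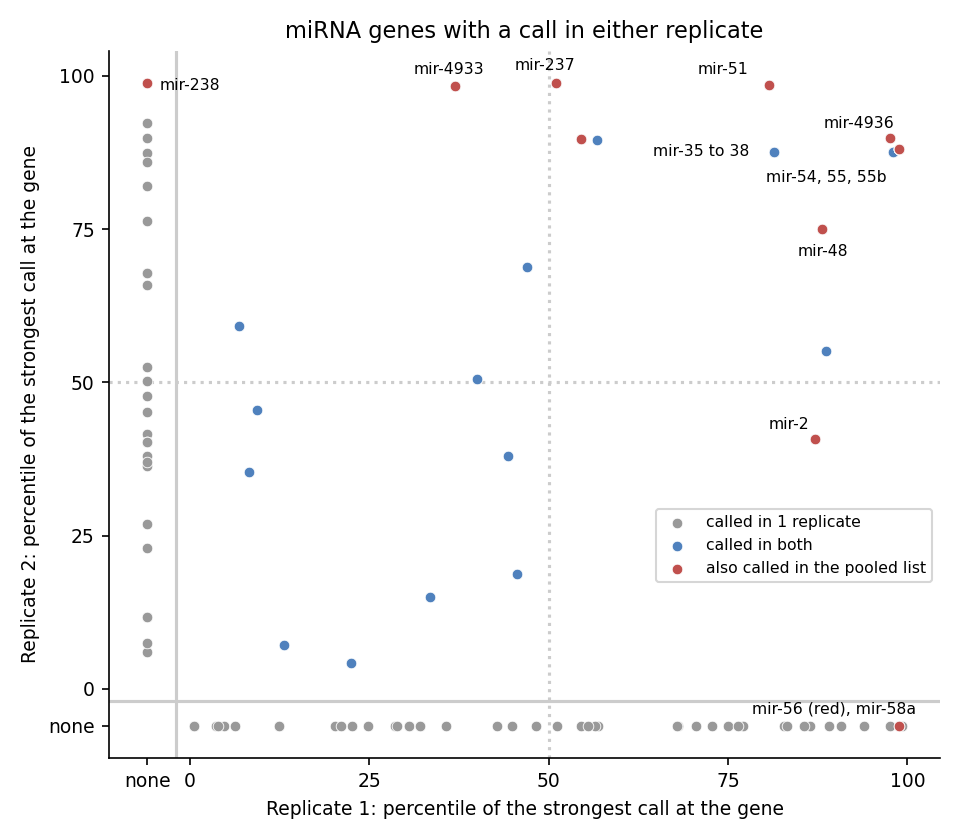
Percentile of the strongest call at each of the 100 microRNA genes with a call in either replicate, in replicate 1 (horizontal axis) and replicate 2 (vertical axis), with genes lacking a call in 1 replicate drawn in the strips marked none. Grey points are genes called in 1 replicate, blue points genes called in both and red points genes with a pooled call; of the genes with a pooled call, mir-4936, mir-51, mir-54, mir-55 and mir-55b sit above percentile 80 on both axes, as do mir-35 to mir-41 without one.

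The single gene with the highest mean percentile among those called in both replicates was mir-4936 (chromosome III, 3249151 to 3249260, plus strand, intergenic), a microRNA of no role given here. Its summit lay inside the annotated gene in all 3 lists. The signal value was 15.7 in replicate 1 (percentile 97.6), 17.2 in replicate 2 (89.8) and 32.9 in the pooled list, where the call ranked 251 of 670. All 3 lists thus placed a summit within the 110 bp of this gene, and the replicate summits were 22 bp apart. The pooled list derives from the alignments of both replicates, so its summit is not independent of theirs, here or at the genes below. The 5′ end of nduf-9, the closest of a protein-coding gene, was 667 bp from the replicate 1 summit.

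The mir-51 family, which acts in the embryo, had the most genes with a pooled call among the families listed: 6 of its 6 genes had a call in replicate 1, 3 in replicate 2 and 4 in the pooled list. The 4 genes share 2 pooled calls. Mir-51 itself (chromosome IV, 11026013 to 11026112, minus strand, intergenic) had signal values of 10.9 in replicate 1 (percentile 80.7), 23.0 in replicate 2 (98.6) and 30.5 in the pooled list. Its summits lay 109, 25 and 69 bp upstream of the gene in these lists, so they fell on one side and within 84 bp of each other. Its neighbour mir-53 had a weak call in replicate 1 alone (percentile 3.95), and mir-52, elsewhere on the chromosome, a strong one in replicate 1 alone (93.9).

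The remaining members of the family, mir-54, mir-55 and mir-56, sit on chromosome X in an intron of F09A5.3, on the strand opposite to it, together with mir-55b, a gene annotated on the other strand over mir-55. One call of replicate 1 (signal value 17.3, rank 234 of 21050) served all 4 genes, with its summit 46 bp upstream of mir-54. The call of replicate 2 (16.8, rank 1692 of 14257) had its summit 229 bp upstream of mir-54 and was within reach of mir-54, mir-55 and mir-55b only. A pooled call (31.8, rank 317) lay between them, at 147 bp upstream. These calls lie on the upstream side of the first hairpin of the cluster, and the 4 genes count as 1 locus. A further call of replicate 1 lay downstream of mir-56 (percentile 93.0).

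The mir-35 family, which is needed for embryonic development, differed from it in having no pooled call. Its first 7 genes, mir-35 to mir-41, lie side by side on chromosome II (11537608 to 11538404) in an intron of Y62F5A.9, on the opposite strand, and all 7 had a call in both replicates. Replicate 1 had a call with its summit inside mir-36 (signal value 11.0, rank 3910) and one 269 bp beyond mir-41 (16.0, rank 432). Replicate 2 had its stronger call inside mir-39 (16.6, rank 1766). Each replicate also had a weaker call beyond mir-41. The stronger summits of the replicates thus did not coincide, and for 6 of the 7 genes the nearest pair of summits was 397 bp apart. The stronger call of replicate 1 was 168 bp from the 5′ end of Y62F5A.9 itself. The eighth member, mir-42, which has the same seed but lies elsewhere on chromosome II, had no call in any list.

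**Figure D3:**
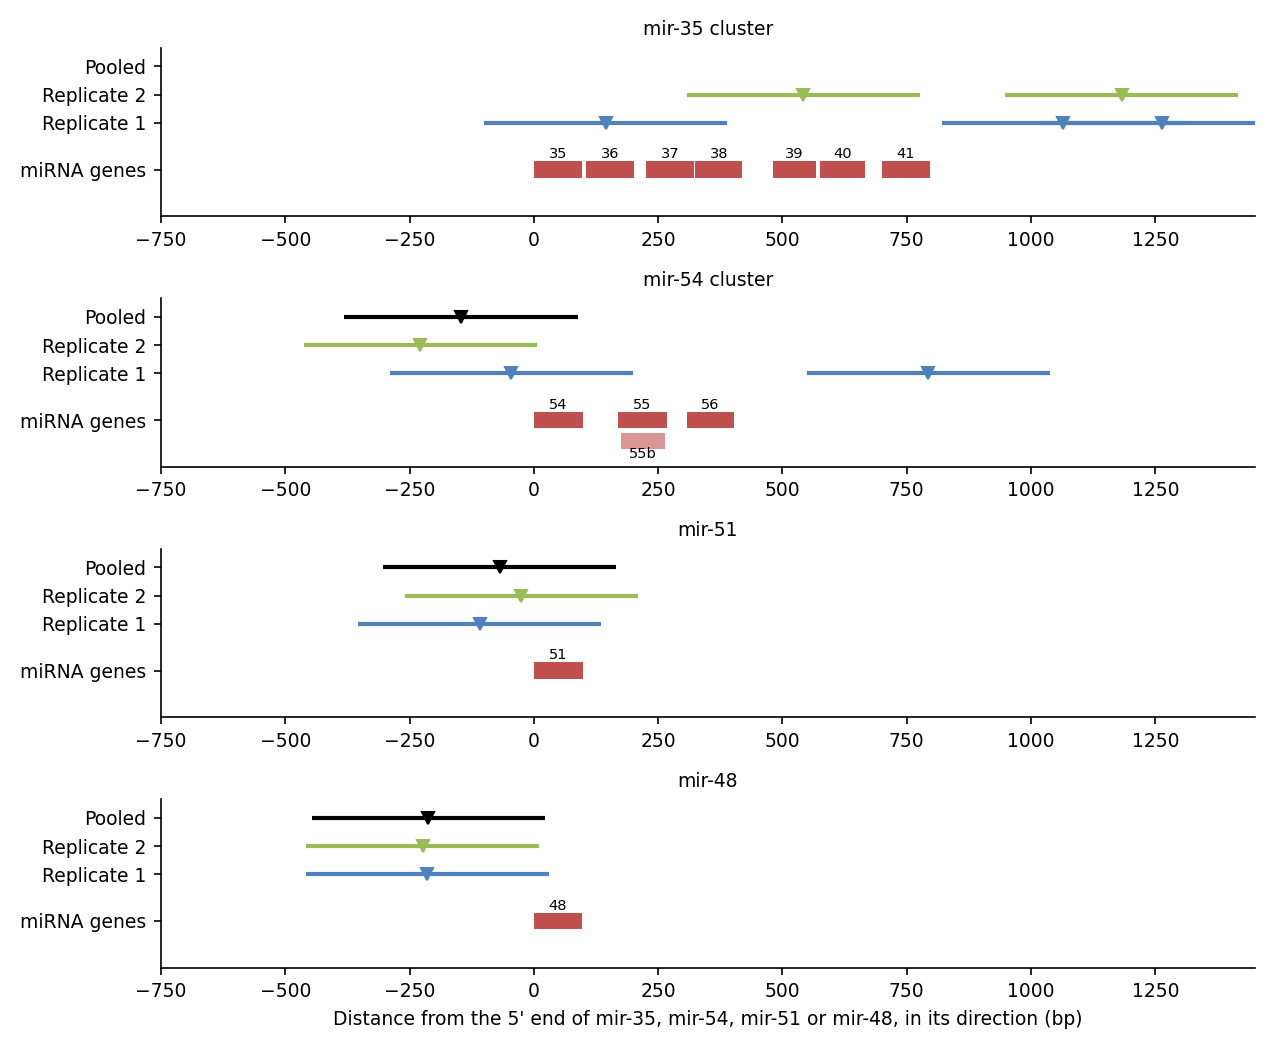
Called intervals (horizontal lines) and summits (triangles) of replicate 1 (blue), replicate 2 (green) and the pooled list (black) at the mir-35 cluster, the mir-54 cluster, mir-51 and mir-48, drawn to scale against distance in bp from the 5′ end of the first gene, in its direction; boxes are the annotated hairpins, with mir-55b in pale red. The 3 summits at mir-48 coincide within 11 bp upstream of the hairpin, those at mir-51 spread over 84 bp, and the mir-35 cluster has no pooled call.

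Among the let-7 family, timers of larval development, mir-48 had a call in every permissive list (chromosome V, 14364412 to 14364509, minus strand, intergenic). Its signal value was 12.1 in replicate 1 (percentile 88.1), 14.7 in replicate 2 (75.1) and 28.8 in the pooled list, where it ranked 612 of 670. The summits were 214, 224 and 213 bp upstream of the hairpin. The replicates, and the pooled list derived from them, thus placed it at nearly the same point. Mir-241, which lies within 5 kb of mir-48 and acts with it, had a call in replicate 2 alone (percentile 47.8). Mir-84, the other gene that acts with them, had a call in replicate 1 alone (70.6), and let-7 had 2 calls in replicate 1 (the better at percentile 32.1) and none in replicate 2. In the lin-4 family, which controls the early larval stages, lin-4 had a call in replicate 2 alone, 310 bp upstream of the hairpin (percentile 89.9).

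The other member of that family, mir-237 (chromosome X, 8154084 to 8154182, plus strand), was called in both replicates and in the pooled list, but the calls of the replicates did not overlap. Replicate 1 had its summit 406 bp upstream (percentile 51.0) and replicate 2 had one 490 bp from the 5′ end on the downstream side (98.8), 896 bp away. The summit of replicate 2 and the pooled summit lay within 500 bp of 2 annotated tRNA genes, F22F1.t2 and F22F1.t3, whose part in this call was not tested.

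The base sequences at mir-51, mir-4936 and mir-48 are shown as examples of genes at which the summits of all 3 lists fell close together. The summits there lay upstream of or within the hairpin. Mir-2, whose summits also fell close together, is not shown. Nor is mir-354, whose nearest replicate summits were 93 bp apart and lay downstream of the gene. Each is written 5′ to 3′ on the strand of the gene, from the RefSeq genome of WBcel235. Capitals mark the mature microRNA and, at mir-51 and mir-4936, the letters GGTTCGA, the core of the B box of tRNA genes.
mir-51 (chrIV:11026013-11026221, minus strand): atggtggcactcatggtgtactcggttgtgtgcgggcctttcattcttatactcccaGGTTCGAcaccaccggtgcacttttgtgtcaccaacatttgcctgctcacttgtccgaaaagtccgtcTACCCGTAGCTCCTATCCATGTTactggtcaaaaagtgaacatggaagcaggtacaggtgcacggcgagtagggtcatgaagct
mir-4936 (chrIII:3249151-3249300, plus strand): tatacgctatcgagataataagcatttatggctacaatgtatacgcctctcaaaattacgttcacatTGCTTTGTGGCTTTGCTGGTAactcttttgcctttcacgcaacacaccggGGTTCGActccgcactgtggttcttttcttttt
mir-48 (chrV:14364434-14364733, minus strand): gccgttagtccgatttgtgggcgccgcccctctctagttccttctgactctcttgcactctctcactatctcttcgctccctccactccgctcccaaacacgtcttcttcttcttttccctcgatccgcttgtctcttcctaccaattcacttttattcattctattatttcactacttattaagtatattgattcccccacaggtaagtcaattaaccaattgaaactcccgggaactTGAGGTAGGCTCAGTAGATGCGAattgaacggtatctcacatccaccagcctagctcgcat

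In the mir-51 stretch the hairpin starts at base 110, the match at base 58, and the summits fall on base 1 (replicate 1), base 85 (replicate 2) and base 41 (pooled). In the mir-4936 stretch the hairpin starts at base 1, the summits fall on bases 92, 70 and 45, and the match starts at base 118, just past the hairpin. This stretch was extended past the hairpin to take in the match. In the mir-48 stretch the hairpin starts at base 225 and the summits fall on bases 11, 1 and 12.

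The B box is an internal promoter element of tRNA genes that recruits the RNA polymerase III factor TFIIIC, and its letters were looked for after the mir-51 stretch had been read. GGTTCGA, on either strand, was held whole by 1.46% of all nuclear windows of 201 bp. Within 100 bp of the summit it was found at 1.95% of all nuclear calls of replicate 1, 2.06% of those of replicate 2 and 8.13% of those of the pooled list. Calls at tRNA genes held it at 32.5%, 32.8% and 44.3%. Among calls at microRNA genes it was found at 3 of 71, 3 of 50 and 2 of 9. These were mir-51 and mir-4936 in all 3 lists, mir-4934 in replicate 1, and mir-237 in replicate 2, near its tRNA genes. Since the letters were chosen after reading the mir-51 stretch, the match there was known beforehand. The counts at microRNA genes include it in every list, so they are not a fair comparison with the other shares. No annotated tRNA, snoRNA or snRNA gene lay within 500 bp of the summits at mir-51 or mir-4936. The matches at mir-51 and mir-4936 read on the same strand as the microRNA gene. A match is a description of letters, and binding by any factor was not measured by it.

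The remaining genes with a pooled call were mir-2, mir-354, mir-238 and mir-4933. Mir-2 lies in an intron of ppfr-1 on chromosome I. Its summits were 359, 363 and 369 bp upstream in replicate 1, replicate 2 and the pooled list. The replicates thus agreed in place, at percentiles of 87.1 and 40.7, and the pooled call was at 42.9. Mir-354 overlaps an exon of rps-20, which encodes a ribosomal protein of the small subunit, and its pooled summit was 18 bp from the 5′ end of the protein-coding gene Y105E8A.14. Mir-238 had a strong call in replicate 2 (percentile 98.7) and none in replicate 1. Its summit was 493 bp from the gene, just within reach. At mir-4933 the strongest calls were at percentile 37.0 in replicate 1 and 98.3 in replicate 2, and up to 54.7% of the 32-base words around the summit in replicate 1 occur elsewhere in the genome, where reads are hard to place. Of all calls at microRNA genes, 6 of 71, 4 of 50 and 1 of 9 had any such repeated words. Mir-50, in an intron of the talin gene tln-1, was called in both replicates at percentiles of 56.8 and 89.5 and had no pooled call.

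Genes that had strong calls in 1 replicate only show how far a single list can differ. The strongest call at any microRNA gene in replicate 1, at mir-58a (percentile 99.3, rank 157, 192 bp from the gene), had no counterpart in replicate 2 and no pooled call. Mir-58a belongs to the family of mir-80, mir-81 and mir-82, whose members are abundant in larvae and adults. Of the 5 genes of the family found, 1 had a call in replicate 1, 1 other in replicate 2 (mir-82) and none in both. Mir-56 counts as called in replicate 1 alone only because the replicate 2 call at the mir-54 cluster lay beyond 500 bp from it. The others in replicate 1 were mir-2217b-3, mir-52 and mir-71, the last a gene with known roles in lifespan (percentile 90.7). Mir-2217b-3 (chromosome IV, 14452441 to 14452502) lies 21521 bp from F55B11.4, the gene that the transgene carries, and its call was 498 bp from the gene. Whether extra copies in the strain raise calls there was not tested. In replicate 2 the strongest such genes were mir-238, mir-353, lin-4, mir-5548 and mir-268, from percentile 98.7 down to 85.9.

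Further families showed few calls shared between replicates. The mir-64 family had 1 of 5 genes called in replicate 1 (mir-63), 3 in replicate 2 (mir-229, mir-64 and mir-65, by 1 call at percentile 40.3) and none in both. The mir-44 family had 1 of 4, mir-61, in replicate 2. Among 4 genes listed as mirtrons, whose hairpins are released by splicing, mir-62 alone had calls, in both replicates, at percentiles of 9.33 and 45.5. Mir-1018, another of the 4, lay in no annotated protein-coding gene and counts as intergenic here. Of 9 genes known for a single tissue or process, 3 had a call in replicate 1 and none had one in replicate 2. Those 3 were mir-71, mir-34 (percentile 85.6), which acts in stress responses, and lsy-6 (24.8), which sets the left-right difference of a pair of taste neurons. The muscle gene mir-1, the neuronal gene mir-124, and mir-228, mir-83, mir-240 and mir-786 had no call within 500 bp in any list. Grouped by seed instead, 16 seeds were shared by 3 or more genes. Of these, 7 had a gene called in both replicates and 5 a gene called in the pooled list. Only CACCGGG and ACCCGUA, the seeds of the mir-35 and mir-51 families, had 3 or more genes called in both. The CACCGGG genes called in both lie side by side in the mir-35 cluster and share calls. Among the ACCCGUA genes, mir-54 and mir-55 share theirs. These counts by seed thus partly count the same calls again, and no expected count was computed.

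Intronic genes had calls more often than intergenic genes, a difference that rested largely on 2 clusters. In replicate 1 the shares were 33.0% of 97 intronic genes and 23.0% of 152 intergenic genes, a difference of 9.96 percentage points (Newcombe 95% interval -1.29 to 21.5). In replicate 2 they were 28.9% and 17.1%, a difference of 11.8 points (1.22 to 22.7). For the pooled list they were 5.15% and 3.95%, a difference of 1.21 points (-4.08 to 7.90). Only the interval of replicate 2 left out 0. With introns of the same strand only, the differences in the replicates were 0.854 and 8.27 points, and with a reach of 250 bp they were 6.43 and 3.34 points. Nuclear windows of 95 bp differed far less, at 19.2% in introns and 18.0% between genes in replicate 1 and 13.3% and 12.3% in replicate 2. The mir-35 and mir-54 clusters supplied 11 of the 97 intronic genes. All 11 had a call in replicate 1, 10 in replicate 2 and 4 in the pooled list. Without them the intronic shares were 24.4%, 20.9% and 1.16%, so the differences from intergenic genes were 1.39, 3.82 and -2.78 points. Leaving out these clusters was chosen after seeing the data.

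By strand, the intronic genes differed mainly through the same 2 clusters. Of the 30 that lie on the strand opposite to their host, 16 had a call in replicate 1 (53.3%), 11 in replicate 2 (36.7%) and 3 in the pooled list. Of the 67 on the same strand the counts were 16 (23.9%), 17 (25.4%) and 2. The mir-35 and mir-54 clusters hold 10 of those 30 opposite-strand genes, of which 10 had a call in replicate 1 and 9 in replicate 2. Without the clusters, 6 of 20 opposite-strand genes (30%) had a call in replicate 1 and 2 (10%) in replicate 2, against 15 of 66 (22.7%) and 16 of 66 (24.2%) on the same strand. The order of the strands was then reversed in replicate 2. Among the 12 exonic genes, 6 had a call in replicate 1 (50%, exact 95% interval 21.1 to 78.9). In replicate 2 there were 2 (16.7%, 2.09 to 48.4). Exonic windows of 95 bp were at 23.5% and 16.9%, so the share of replicate 2 lay near the windows.

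Clustered genes did not stand apart from single genes in the same direction in both replicates. The shares were 27.1% of 85 clustered and 28.4% of 176 single genes in replicate 1, a difference of -1.35 points (-12.3 to 10.6). In replicate 2 they were 28.2% and 18.2%, a difference of 10.1 points (-0.534 to 21.5), and in the pooled list 8.24% and 2.84%, a difference of 5.39 points (-0.153 to 13.4). All 3 intervals included 0. Without the mir-35 and mir-54 clusters the clustered shares were 16.2%, 18.9% and 4.05%, and the differences -12.2, 0.737 and 1.21 points. With each cluster counted as 1 locus, 10 of 30 clusters had a call in replicate 1, 11 in replicate 2, 5 in both and 4 in the pooled list. The differences from single genes were then 4.92 points in replicate 1, 18.5 in replicate 2 and 10.5 in the pooled list. A cluster counts as called when any of its genes is, so it has more room for a summit than a single gene. The largest cluster, 11 genes around mir-4807 on chromosome X, had 1 gene called in replicate 1 and none in replicate 2. Genes that were both intronic and clustered had a call in 14 of 25 cases (56%) in each replicate, while intergenic clustered genes had 8 and 10 of 58. Of those 25, 11 belong to the mir-35 and mir-54 clusters, and the other 14 had a call in 3 cases (21.4%) in replicate 1 and 4 (28.6%) in replicate 2.

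**Figure D4:**
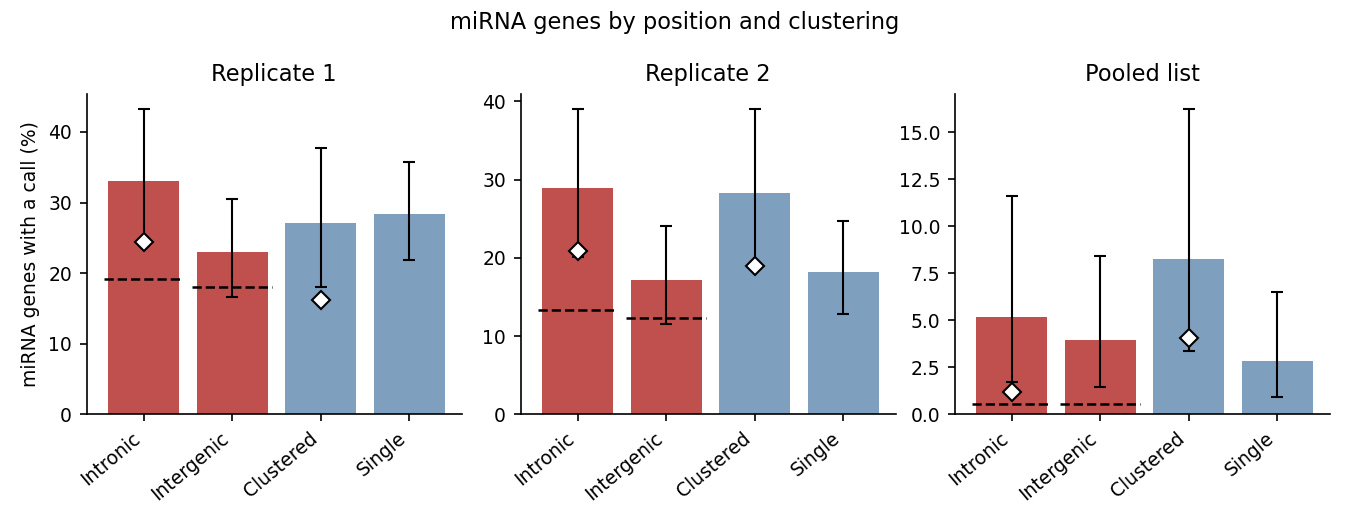
Share of microRNA genes (%, vertical axis) with a call, by position (intronic and intergenic, red) and by clustering (clustered and single, blue), for each replicate and the pooled list, with separate scales. Error bars are exact 95% intervals, dashed lines mark nuclear windows of the same context, and white diamonds give intronic and clustered genes without the mir-35 and mir-54 clusters: intronic genes fall from 33.0% to 24.4% in replicate 1 and from 28.9% to 20.9% in replicate 2.

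Few microRNA genes lay near another kind of small RNA gene. A tRNA gene was within 500 bp of 4 and a snoRNA gene of 6, and a snRNA gene of none. Of these 10 genes, 3 had a call in replicate 1, 5 in replicate 2, 3 in both (mir-77, mir-237 and mir-239a) and 1 in the pooled list (mir-237). Leaving them out gave 27.9% in replicate 1, 20.3% in replicate 2, 26 genes in both and 4.38% in the pooled list for the other 251. The shares thus changed little without these genes.

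Summits spread over the whole reach around the hairpins. In replicate 1, 34 of the 71 summits lay upstream of the nearest microRNA gene, 9 inside it and 28 downstream. Replicate 2 had 23, 8 and 19 of 50, and the pooled list 4, 1 and 4 of 9. The 9 inside in replicate 1 include both calls at let-7, which is annotated as a long primary transcript. Those summits lay upstream of its mature sequence. The median summit lay 196 bp from the gene in replicate 1, 159.5 bp in replicate 2 and 150 bp in the pooled list. At tRNA genes these medians were 63, 42 and 24 bp, and at snoRNA genes 122, 91 and 27 bp, so summits there fell closer. At the limit of 500 bp, the last gene inside was mir-2217b-3 at 498 bp in replicate 1 and mir-238 at 493 bp in replicate 2, and the first outside were mir-5592-1 at 506 bp and mir-2221 at 523 bp. Over all 261 genes the nearest summit was a median of 1317 bp away in replicate 1 and 1734 bp in replicate 2.

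**Figure D5:**
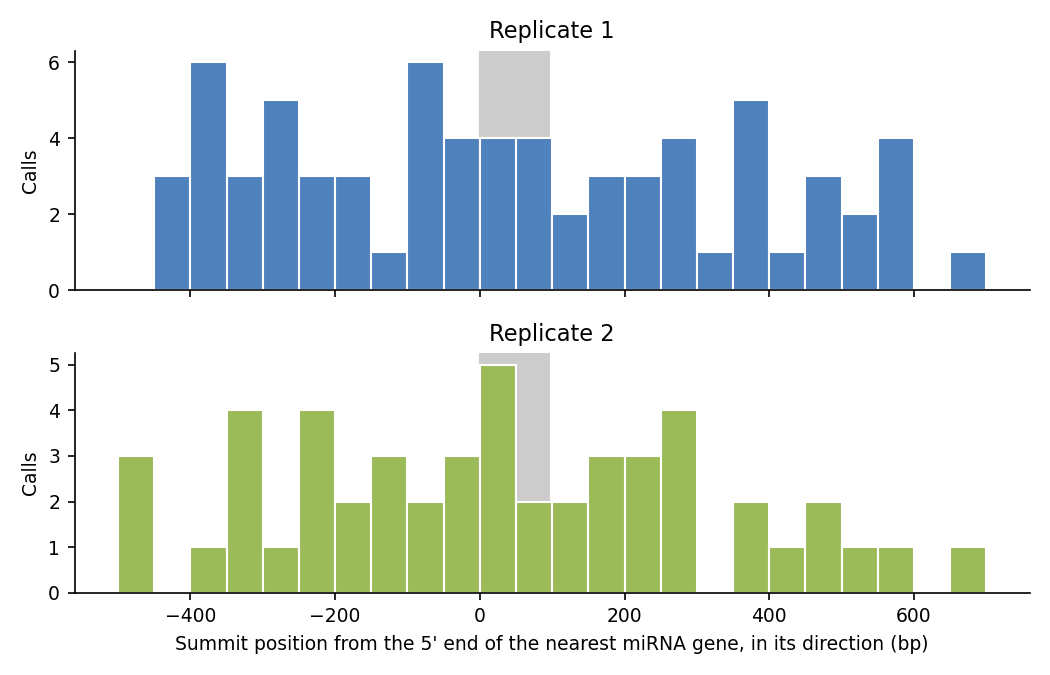
Number of calls (vertical axis) by summit position in bp from the 5′ end of the nearest microRNA gene, in its direction (horizontal axis), in bins of 50 bp, for replicate 1 (blue) and replicate 2 (green). The grey band marks the span of a hairpin of typical length, and summits lie on both sides of it in both replicates. A summit at let-7 (880 bp, replicate 1) and one at mir-8199 (1222 bp, replicate 2) lie beyond the last bin and are drawn in it.

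By chromosome, the shares in the 2 replicates lay furthest apart on X, where 22 of 74 genes had a call in replicate 1 (29.7%) and 10 in replicate 2 (13.5%). Windows of 95 bp on X were at 24.4% and 14.9%. On chromosome II, 18 and 16 of 49 genes had a call, 7 of them in the mir-35 cluster, against 20.1% and 14.6% of windows. On chromosome IV, 12 and 7 of 50 genes had a call (24% and 14%), against 18.7% and 13.5% of windows. Chromosome III had 5 and 7 of 27 (18.5% and 25.9%), against 19.4% and 14.8%. Several of these shares, such as that of chromosome III in replicate 1, thus lay near the windows. Chromosome V had 6 and 7 of 28 (21.4% and 25%), against 20.9% and 14.6%, and chromosome I 10 and 9 of 33 (30.3% and 27.3%), against 18.2% and 13.8%.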

How the data were processed

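Chromatin immunoprecipitation was sequenced in 2 replicates of 1 group. Per the deposited notes, the replicates were called against a common control library. No source used here names the aligner, the caller or a threshold. The authors' signal value of each call is a score of unstated scale, used only to rank calls within a list. A −log10 q-value stands beside each deposited call. The ce11 lists were used, and the ce10 lists were not.

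Genes came from Ensembl release 115 and sequences from RefSeq, both WBcel235. Depth is unknown, so exact (Clopper-Pearson) and Newcombe 95% intervals cover counting error only. Nothing was tested, since there is 1 group of 2 replicates. Look-ups were checked on simulated data. Members and lists were chosen with earlier results of these data known. Named genes were those with a pooled call, the 15 called in both replicates with the highest mean percentile, the 5 strongest called in 1 replicate alone, and the families listed. Python 3.11.15, pandas 2.3.3, scipy 1.17.1 and statsmodels 0.14.6 were used.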

Additional observations from a re-analysis of the deposited data

How the results depend on the processing

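Of 89 values recomputed under another setting, 66 were labelled the same, 17 moved and 6 changed sign. For differences between groups, the same means only the same sign, in several cases with a large change in size. For shares, counts and medians the label concerns size, as they have no direction. With a reach of 250 bp the shares were 16.9% in replicate 1, 14.2% in replicate 2 and 2.30% in the pooled list, and 13 genes were called in both; nuclear windows fell to 11.6%, 8.03% and 0.383% and nuclear genes to 28.3%, 22.0% and 1.83%. With 1000 bp they were 44.4% and 34.9%, with 58 genes in both, and windows rose to 35.2% and 25.5% and genes to 46.1% and 36.2%. Requiring the called interval to overlap the gene gave 16.9%, 13.8% and 2.30%. The strongest 50% of each list gave 15.3%, 12.6% and 17 genes in both. Nuclear windows were then at 10.7% and 7.35% in replicates 1 and 2, and nuclear genes at 21.1% and 15.5%. Cutting replicate 1 to the length of replicate 2 gave 19.2%, below the 21.5% of replicate 2, so the order of the replicates was reversed. No background is given for that cut. Without the mir-35 and mir-54 clusters, chosen after seeing the data, 19 genes were called in both. Leaving out each replicate gave 56 to 73 genes, which by construction counts a call in the other replicate alone. The difference between clustered and single genes in replicate 1 turned positive with the strongest 50% of calls (5.19 points), a cluster distance of 1 kb (1.39) and each cluster as 1 locus (4.92). The intronic difference in the pooled list turned negative at 250 bp (-1.60), with introns of the same strand only (-0.962) and without the 2 clusters (-2.78). Without the 2 clusters the clustered difference went from -1.35 to -12.2 in replicate 1 and from 10.1 to 0.737 in replicate 2. The cause was not tested. No paired analysis was possible because there is 1 group and no result comes from a test.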
